A study of Mus musculus with 8 samples.

Results

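Endothelial cells, which line blood vessels, and mural cells, which wrap them, were described from single-cell transcript counts of adult mouse tibia. A cell was a barcode with at least 800 detected genes, at most 20% of its unique molecular identifiers (UMIs, counted transcripts) from mitochondrial genes and no UMI of Ptprc, the pan-leukocyte CD45 gene. It was called endothelial with at least 1 UMI of Cdh5 (VE-cadherin) and at least 2 of Egfl7 and Emcn together. It was called mural with no Cdh5 UMI and either at least 3 UMIs of Rgs5, a regulator of G-protein signalling, or at least 10 of the smooth muscle genes Acta2 and Tagln together. Of 12564 barcodes, 9261 were within the gene and mitochondrial limits, and 2732 of these lacked Ptprc. The rule took 40 endothelial cells, 0.432% of the 9261 (95% interval 0.309% to 0.588%), and 47 mural cells, 0.508% (0.373% to 0.674%). These 87 cells were chosen by the values of the named genes, which are given below as a description.

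The tibiae came from mice at P56, that is at 8 weeks of age, which received no treatment. All of them carried MMP14 F/+, COL10A1cre, R26-tdT and Col1a1-2.3-GFP. They thus had 1 floxed Mmp14 allele, a Cre recombinase made in hypertrophic chondrocytes (HCs), a tdTomato reporter that Cre switches on for the descendants of those cells, and GFP under a 2.3 kb Col1a1 fragment that is active in osteoblasts. The study used them to follow HC descendants in bone, and the labels name the cells chondro-osteogenic although 70.5% of the 9261 held a Ptprc UMI. Cells of 3 mice were pooled and the 8 labelled samples carry no mark on the barcodes, so there is 1 sample, no mouse without Cre for comparison, and no replicate against which to check a difference. Levels are UMIs per 1000000 UMIs of a class (CPM), intervals are at 95%, and both cover counting error only, not variation between cells or mice. The table held 91463572 UMIs in all, endothelial cells held 2154 to 26488 UMIs (median 6915) and mural cells 2801 to 42278 (median 8832).

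Endothelial cells of bone marrow form arterioles and wide, thin-walled sinusoids, through which blood cells enter the circulation, and they take up lipids and macromolecules from blood. Mural cells comprise contractile smooth muscle cells around arterioles and pericytes around smaller vessels. Endothelial cells recruit them by secreting PDGF-B, which binds the receptor PDGFRB on mural cells, and the layers also signal to each other through Notch, endothelin, nitric oxide and angiopoietins.

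The endothelial label was borne out by genes that had no part in the choice. Pecam1, the adhesion molecule CD31, was seen in 40 of 40 endothelial cells, with 129, 980.4 and 2954 CPM in the lowest, median and highest cell. Kdr, the main VEGF receptor, was seen in 36 of 40 endothelial cells. In mural cells it had no UMI, and at a limit of 3 counts 0 of 47 leaves room for at most 6.38% of cells with a UMI. In blood cells, which should lack it, Kdr was at 1.89 CPM. Over the 23 genes of an endothelial identity list that the rule did not use, the lowest, median and highest cell had 5941, 10802 and 17924 CPM. In 4 cells mural or stromal transcripts came with them. A cell with 204 Rgs5 UMIs held 94.4% of the Rgs5 UMIs of the class, another had 12 UMIs of Tagln, and 2 held Adipoq, a gene of marrow reticular stroma, with 65 and 303 UMIs of the chemokine gene Cxcl12. Values without these 4 are given where they matter, and their part in other results was not tested.

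The mural label held for a share of the 47 cells. Myh11, the smooth muscle myosin heavy chain, or Notch3, a receptor typical of mural cells, was seen in 31 cells with fewer than 10 UMIs of the cartilage genes Col2a1 and Acan together. These 31, here called the Myh11/Notch3 cells, had 0, 14 and 96 Myh11 UMIs in the lowest, median and highest cell, and 28 of them held Pdgfrb. They were set apart after the values had been seen, and Myh11 and Notch3 are described in them only. Another 8 cells, which passed through 14 to 34 Acta2 and Tagln UMIs, held 151 to 2845 Col2a1 and Acan UMIs and no Rgs5, Myh11, Notch3 or Pdgfrb. They gave 35.6% of all mural UMIs. A further 7 cells passed through Rgs5 alone, with 3 to 67 UMIs, and held no UMI of Myh11, Notch3, Pdgfrb, Acta2, Tagln or Myl9. The last cell had 13 Acta2 UMIs and 6 of Pdgfrb. Mural values are therefore given for the 47 cells of the rule and for the 31 Myh11/Notch3 cells side by side.

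**Figure D1:**
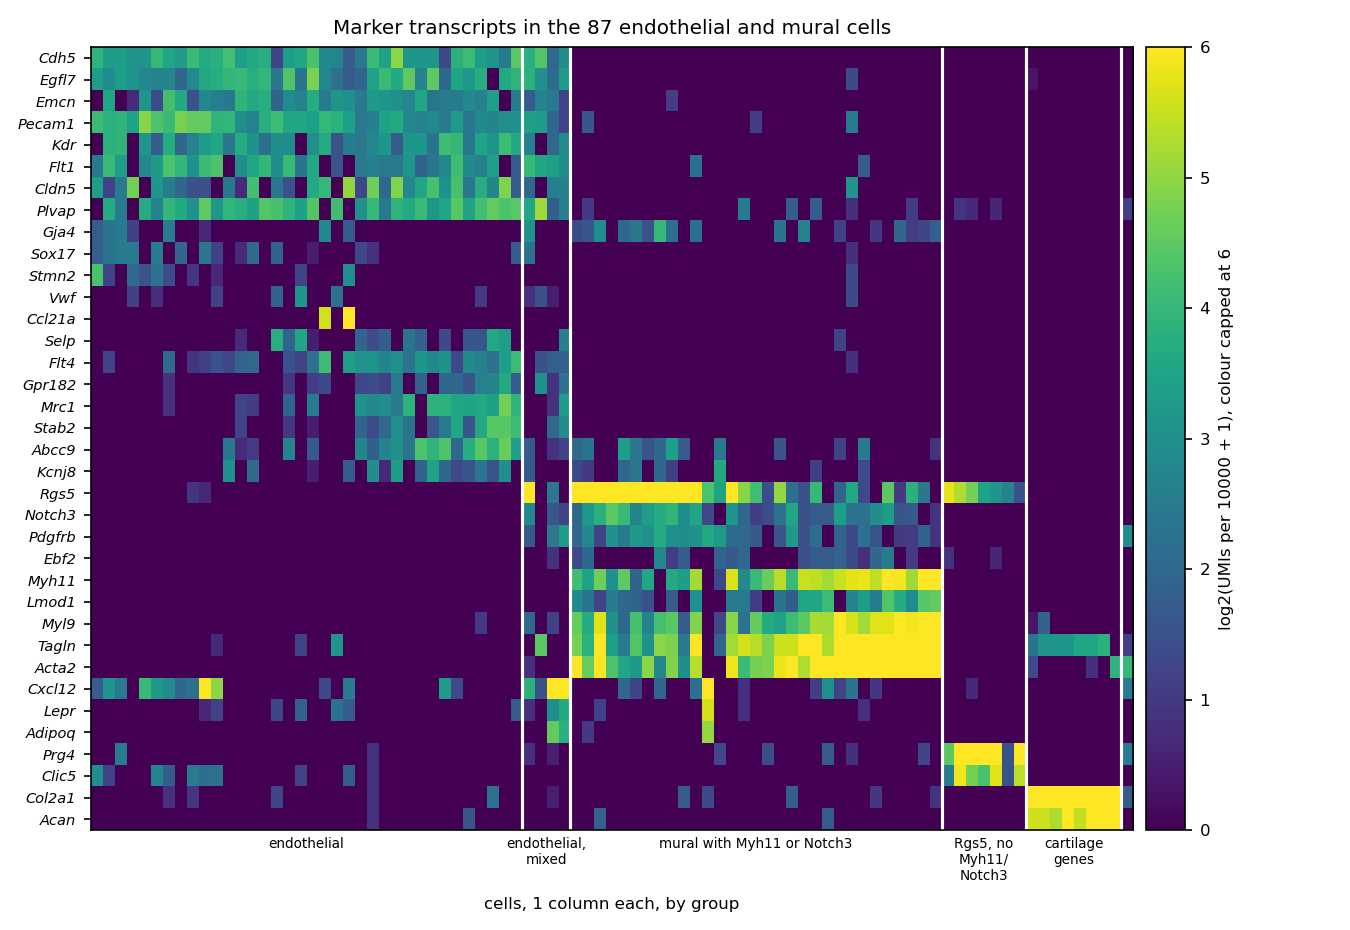
Heat map of 36 marker genes in rows and the 87 cells in columns, as log2 of UMIs per 10000 plus 1, capped at 6, with white lines between groups of cells and the remaining mural cell in the last column. Cdh5 to Plvap fill the endothelial columns, Rgs5 to Acta2 fill the 31 Myh11/Notch3 columns, and the remaining mural columns hold Prg4 or Col2a1 and few or none of the mural genes.

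Some cells of each class lay near the thresholds. Raising the mural limits to 6 Rgs5 or 20 Acta2 and Tagln UMIs left 40 of 47 mural cells. Among endothelial cells, 3 held exactly 1 Cdh5 UMI and 1 held exactly 2 UMIs of Egfl7 and Emcn. Just outside, 1 cell with Cdh5 had 1 UMI of these and 6 had 0. Among mural cells 3 held exactly 3 Rgs5 UMIs, and 7 barcodes with 1 or 2 stayed outside. At the contractile threshold 5 cells had 10 to 20 UMIs, and 7 barcodes with 5 to 9 stayed outside, 5 of them with at least 10 Col2a1 and Acan UMIs. A further 6 barcodes met the endothelial and 4 the mural thresholds but held Ptprc.

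The 2 classes differed widely. Over the 2891 genes with at least 50 UMIs in both together, 224 were at least 4-fold higher in endothelial cells (7.75%) and 232 in mural cells (8.02%), with a median log2 ratio of 0.08. Against the 31 Myh11/Notch3 cells, 1986 genes could be compared, of which 189 were 4-fold higher in endothelial cells (9.52%) and 124 in mural cells (6.24%), at a median log2 ratio of 0.24. Shares of the gene lists below are to be read against these percentages. Every gene past the minimum entered this background, whereas the lists were made of known vessel genes.

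All 23 endothelial identity genes that passed 50 UMIs were at least 4-fold higher in endothelial cells, of 26 listed, with a median log2 ratio of 5.92 against the 47 and 4.84 against the 31. Cdh5, Egfl7 and Emcn are among them and made the class. Kdr was at 691 CPM (607 to 783) against 0 UMIs in mural cells, at least 120.0-fold higher at a floor of 3 counts for the mural class. Flt1, a VEGF receptor that also acts as a decoy, was at 887 CPM (792 to 990.0) against 7.68 CPM, a log2 ratio of 6.85 (5.48 to 8.74). For Ptprb, the endothelial phosphatase VE-PTP, the log2 ratio was 6.23 (5.09 to 7.69), and all 6 mural UMIs were in 1 cell. That Myh11/Notch3 cell, with 69 Myh11 UMIs and 44 of the 101 endothelial identity UMIs of the 31, held 3379 CPM over the list, below the 7391 CPM of the lowest endothelial cell over the same 26 genes, of which 3 chose the endothelial cells.

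Apart from the genes of the rule, those that separated endothelial cells most clearly, ranked by the interval bound nearest 0, opened with Ctla2a, a cysteine protease inhibitor. It had 394 UMIs in 38 of 40 cells and 0 in mural cells, at least 191-fold higher. Gpihbp1, which carries lipoprotein lipase across capillary endothelium, was seen in 29 of 40 cells and 0 of 47, at least 74.8-fold higher. Lrg1, a glycoprotein that modifies TGF-beta signalling in vessels, and the scavenger receptors Stab1 and Mrc1 were likewise at 0 in mural cells. Their levels in endothelial cells were 417, 389 and 338 CPM. Robo4, Cyyr1 and Fam167b were also at 0 in mural cells, while Tfpi, the tissue factor pathway inhibitor, and the adhesion receptor Adgrl4 had 1 mural UMI each, with log2 ratios of 8.14 (5.64 to 13.45) and 7.82 (5.32 to 13.13). None of these genes chose the cells.

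Mural cells were led by the contractile apparatus. Of 15 contractile genes with 50 UMIs, of 20 listed, 13 were at least 4-fold higher in the 47 mural cells and 14 in the 31 Myh11/Notch3 cells, and 0 were higher in endothelial cells. Acta2 and Tagln are among them and chose the cells. Myh11 had 788 mural UMIs, all in the Myh11/Notch3 cells, and 0 in 40 endothelial cells, at least 180.2-fold higher at the floor. Tpm2, a tropomyosin, was at 2359 CPM (2229 to 2494) in mural cells and 16.8 CPM in endothelial cells, a log2 ratio of endothelial to mural of -7.13 (-8.58 to -6.01). Myl9, a myosin light chain, gave -6.14 (-7.35 to -5.15). Per cell, Myl9 was at 0, 2264 and 10379 CPM in the lowest, median and highest of the 31 cells and in 3 of 40 endothelial cells at all. Endothelial cells were not empty of the whole list, since Mylk, the kinase of that light chain, was seen in 22 of them at 154 CPM, with a log2 ratio of -2.28 (-2.72 to -1.87) to the 47. Lmod1, Cnn1 and Actg2 were at 0 in endothelial cells, and Myocd, the coactivator of serum response factor that drives this gene set in smooth muscle, was seen in 12 of 31 cells with 14 UMIs and in 0 of 40.

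Serum response factor binds a DNA element called the CArG box, and because the contractile genes were high together, the 250 bases before their RefSeq start sites (GRCm38.p6) were searched for it. A box was CC, then 6 bases with at most 1 G or C, then GG, a form that reads the same on the opposite strand, and no other motif was searched. Of 18 windows of 16 contractile genes, 2 held a box (11.1%), those of Acta2 and Myl9, against 8.59% of all 32851 windows and 16.7% of 18 windows of endothelial identity genes. Both held a pair of boxes, as 0.670% of all windows do. These windows were picked for printing after the search, and a match is a description of letters only. Capitals mark the boxes, and each window is written from 5′ to 3′ on the strand of its gene.
Acta2, minus strand, chr19:34255374-34255623: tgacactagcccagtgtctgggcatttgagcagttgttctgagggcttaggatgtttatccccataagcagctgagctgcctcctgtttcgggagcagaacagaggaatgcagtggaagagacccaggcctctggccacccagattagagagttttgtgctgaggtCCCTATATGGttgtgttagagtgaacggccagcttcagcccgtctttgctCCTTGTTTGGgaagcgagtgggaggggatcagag
Myl9, plus strand, chr2:156775214-156775463: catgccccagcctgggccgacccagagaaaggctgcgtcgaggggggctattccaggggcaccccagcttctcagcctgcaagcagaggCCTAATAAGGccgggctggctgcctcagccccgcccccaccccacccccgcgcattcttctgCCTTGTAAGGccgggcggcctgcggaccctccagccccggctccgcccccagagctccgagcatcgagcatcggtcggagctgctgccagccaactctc
In Acta2 the boxes cover bases 84 to 75 and 34 to 25 before the start, and in Myl9 bases 161 to 152 and 99 to 90.

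Other genes that stood out in mural cells depended on which cells were taken. Crispld2, a secreted protein, and Aoc3, a cell-surface amine oxidase of smooth muscle, were at 1265 and 472 CPM in the 31 Myh11/Notch3 cells and at 2.80 and 0 CPM in endothelial cells. Mustn1 was at 1847 against 16.8 CPM. By contrast Fn1 (fibronectin), Pcolce2, Plod2, Anxa8 and Sdc4 ranked among the first 15 for the 47 cells with most of their mural UMIs outside the 31. For Fn1 1701 of 2235 mural UMIs lay in the 7 Rgs5-alone cells, and Anxa8 had 0 UMIs in the 31. Against the 31 the next genes were Aspn, Cpe, Mt2, Mt1, Lgals1, Fxyd1 and Flna. Mt1, a metallothionein, was at 3357 CPM (3128 to 3599) against 176 CPM (135 to 225) in endothelial cells, and Flna, an actin crosslinker, at 1603 against 112 CPM.

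Pericyte genes were less one-sided. Of 12 with 50 UMIs, of 16 listed, 6 were 4-fold higher in the 47 mural cells and 1, Abcc9, in endothelial cells, and against the 31 the counts were 7 and 0 of 10. Rgs5, which chose cells of the class, and Notch3 are among them. Notch3, which chose the 31, was at 565 CPM in them and 39.2 in endothelial cells, where all 14 UMIs came from the 4 mixed cells. The mitochondrial protein gene Ndufa4l2 and the metalloreductase gene Steap4 were at 321 and 316 CPM in the 31 and at 53.2 and 25.2 in endothelial cells. Abcc9 and Kcnj8 encode the subunits of a vascular potassium channel and are widely used to mark pericytes. They are neighbours on the minus strand of chromosome 6 (mm10), at 142587862 to 142702315 and 142564837 to 142571614, and both were seen in endothelial cells as well. Abcc9 was at 336 CPM (278 to 401) in 22 of 40 endothelial and 160.3 CPM (113 to 220.0) in 13 of 31 Myh11/Notch3 cells, a log2 ratio of 1.07 (0.53 to 1.63), and Kcnj8 at 123 CPM (89.4 to 165) and 84.4 CPM (51.5 to 130.3), a log2 ratio of 0.55 (-0.25 to 1.39). In blood cells they were at 1.15 and 0.492 CPM. Thinned to 1500 UMIs per cell, Abcc9 was seen in 31.5% of endothelial and 18.6% of Myh11/Notch3 cells, against 55% and 41.9% unthinned. Neither channel gene was at background in endothelial cells, and which of them held it is described below.

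Some ligand and receptor genes that link the layers differed between them. Pdgfb was seen in 23 of 40 endothelial cells at 151 CPM (113 to 197) and in 5 of 31 Myh11/Notch3 cells at 29.5 CPM (11.9 to 60.8), a log2 ratio of 2.36 (1.21 to 3.74). Its receptor gene Pdgfrb was in 3 endothelial cells, all among the 4 mixed ones, and in 28 of 31 mural cells, a log2 ratio of -2.78 (-3.56 to -2.07). Of 13 genes of endothelin, nitric oxide and vessel tone 2 passed 50 UMIs, with S1pr1 4-fold higher in endothelial and Gucy1a1 in mural cells, and the other 11 were below it. Edn1, which encodes the constrictor endothelin-1, was at 123 against 4.22 CPM, and 1 cell held 27 of its 44 endothelial UMIs. Its receptor gene Ednra was at 8.39 against 152 CPM, with all 3 endothelial UMIs in 1 cell. Nitric oxide is made by the product of Nos3, with 13 UMIs in 13 endothelial and 0 in mural cells, and sensed by the cyclase of Gucy1a1 and Gucy1b1. The latter were at 388 and 143 CPM in the 31 cells and both at 11.2 in endothelial cells, and the kinase gene Prkg1 of the same route at 135 and 5.59 CPM. S1pr1 and S1pr3, receptors of sphingosine 1-phosphate, had 218 against 21.1 CPM for the former and 8.39 against 160.3 for the latter.

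**Figure D2:**
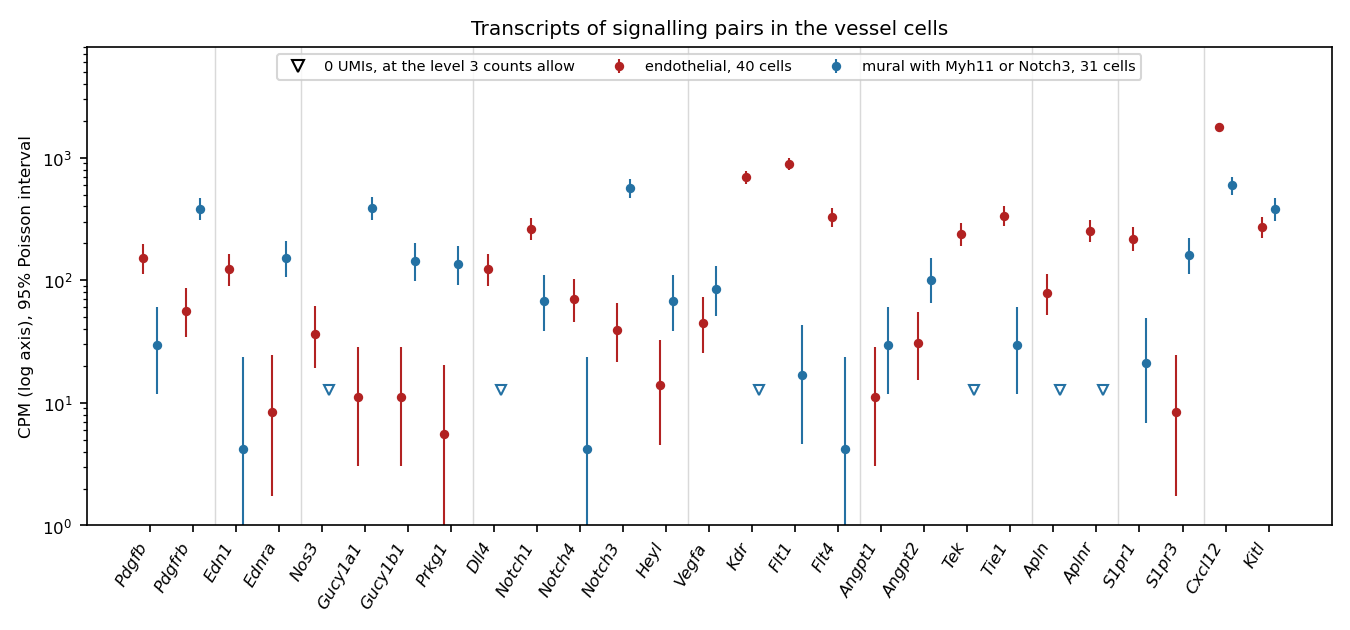
CPM on a log axis of 27 ligand, receptor and effector genes in 40 endothelial cells (red) and 31 Myh11/Notch3 cells (blue), with bars for the Poisson 95% interval and open triangles at the level that 3 counts allow where no UMI was seen. Bars that reach the lower edge run on below 1 CPM. Pdgfb, Edn1, Nos3, Dll4, Kdr and Tek lie higher in red, and Pdgfrb, Ednra, Gucy1a1, Notch3 and S1pr3 in blue.

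Within the Notch pathway the ligand gene Dll4 had 44 UMIs in 17 endothelial cells and 0 in mural cells, at least 9.73-fold higher than in the 31. Notch1 and Notch4 were at 263 and 69.9 CPM in endothelial and 67.5 and 4.22 in Myh11/Notch3 cells. Jag1, a further ligand, was seen in both, at 78.3 CPM (52.0 to 113) and 173 CPM (124 to 235). Hes1, a target of the pathway, was near equal at 445 CPM (378 to 519.5) and 481 CPM (397 to 578), while the targets Heyl and Nrarp had 5 and 24 UMIs in endothelial cells against 16 and 36 in the 31. In the platelet-derived growth factor list 3 of 6 genes were testable, and 1, Pdgfb, was 4-fold higher in endothelial cells, 0 in the 47 and 2 in the 31 mural cells, the latter Pdgfrb and the ligand gene Pdgfa at 269.9 against 58.7 CPM. In the Notch list, of 6 testable genes of 14 listed, 1, Notch1, was 4-fold higher in endothelial cells and 1, Notch3, in the 47 mural cells. Against the 31 Notch1 was under 4-fold, at 1.96 (1.19 to 2.83).

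VEGF receptors were endothelial and their ligand genes sparse. Of 6 VEGF genes with 50 UMIs, of 10 listed, 5 were 4-fold higher in endothelial cells and 0 in mural cells, and 4 and 0 of 5 against the 31. Flt4, the receptor for VEGF-C, was at 327 CPM (271 to 392) with 1 UMI in mural cells, and the co-receptor genes Nrp1 and Nrp2 gave log2 ratios of 1.32 (0.82 to 1.85) and 3.52 (2.43 to 4.86) to the 31. Vegfa itself had 16 endothelial UMIs, and 25 of 46 mural UMIs were in the 8 cartilage-gene cells. Of the angiopoietin route, the receptor genes Tek and Tie1 were at 238 and 336 CPM in endothelial cells and at 0 and 29.5 in the 31. Angpt2 was at 30.8 CPM (15.4 to 55.1) and 101 CPM (64.9 to 151), a log2 ratio of -1.72 (-2.90 to -0.63), and Angpt1 had 4 and 7 UMIs, too few to order. Apln and its receptor gene Aplnr were both at 0 in mural cells and had 28 and 91 endothelial UMIs.

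In the TGF-beta and BMP group 3 of 9 testable genes, of 17 listed, were 4-fold higher in endothelial cells and 0 in mural cells, and 3 and 0 of 8 against the 31. Eng (endoglin) led with 906 CPM (810.3 to 1011) against 16.9 CPM (4.60 to 43.2) in the 31. The ligand gene Tgfb1 and the receptor gene Tgfbr2 were at 260.2 and 255 CPM against 38.0 and 46.4. Tgfb2, Tgfb3 and Bmp2 went the other way, with 24, 24 and 27 UMIs in the 31 cells and 12, 5 and 7 in the 40 endothelial cells, which held more UMIs in all. Bmp2 was seen in 18 of 31 and 7 of 40 cells.

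Both layers transcribed genes of the vessel basement membrane. Of 14 testable genes, of 16 listed, 1, Lamb1, was 4-fold higher in endothelial and 1, Fn1, in the 47 mural cells. Against the 31 the counts were 0 and 1 of 12, with Lamb1 at 1.63 (0.71 to 2.67). Col4a1 and Col4a2, the main type IV collagen chains, were at 1857 CPM (1719 to 2004) and 971 CPM (871 to 1078) in endothelial cells and at 1653 CPM (1494 to 1825) and 822 CPM (711 to 946) in the 31 cells, log2 ratios of 0.17 (-0.01 to 0.35) and 0.24 (-0.02 to 0.50). Nid1 and Hspg2 (perlecan) were higher in endothelial cells, at 1.07 (0.51 to 1.66) and 1.67 (1.21 to 2.15), and Lamb2 and Col18a1 lower, at -1.89 (-2.43 to -1.38) and -1.74 (-2.20 to -1.31). Sparc had 4084 of its 5027 mural UMIs in the 8 cartilage-gene cells, and its log2 ratio turned from -1.30 against the 47 to 0.33 against the 31. Interstitial collagens, with 5 genes of the fibrillar types I, III and V and 3 of type VI, were mural. All 8 listed genes were testable, 5 were 4-fold higher in the 47 mural cells, 7 in the 31, and 0 in endothelial cells. Col3a1 was seen in 24 of 31 cells at 1645 CPM (1486 to 1816) and in 4 endothelial cells, where 37 of 60 UMIs came from 1.

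Junction and adhesion genes were endothelial, with 12 of 15 testable, of 21 listed, at least 4-fold higher than in the 47 mural cells and 0 lower, and 13 and 0 of 15 against the 31. Cldn5, the tight junction claudin of endothelium, was at 775 CPM (686 to 872), and its 10 mural UMIs were in 1 cell. Gja4, a gap junction gene usually linked to arterial endothelium, was also seen in mural cells. It had 38 UMIs in 17 of 31 against 29 in 9 of 40 endothelial cells. The log2 ratio was -0.98 (-1.73 to -0.25) to the 31 and 0.15 (-0.60 to 0.89) to the 47. Of the 29 endothelial UMIs 10 were in the mixed cell with 204 Rgs5 UMIs. Of the 11 testable lipid transport genes, of 13 listed, 5 were 4-fold higher in endothelial and 1, Lrp1, in the 47 mural cells. Against the 31 the counts were 4 and 0 of 10, with Lrp1 at -1.76 (-2.88 to -0.73). Fabp4, a fatty acid binding protein, was at 4571 CPM (4352 to 4798) in 31 of 40 cells and, per cell, at 0, 2711 and 34129.7 CPM in the lowest, median and highest. It was also present in 18 of 31 Myh11/Notch3 cells at 1784 CPM (1618 to 1962), against 19.7 CPM in blood cells. Cd36 and Rbp7 were at 0 in mural cells.

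Of 7 testable genes for antigen presentation and interferon response, of 12 listed, 3 were 4-fold higher in endothelial and 0 in mural cells, and 4 and 0 against the 31. The class I genes H2-K1 and B2m were at 1228 CPM (1116 to 1348) and 1578 CPM (1450.2 to 1713) in endothelial and 291 CPM (226 to 368) and 468 CPM (385 to 564) in Myh11/Notch3 cells. Ly6e was at 1007 against 67.5 CPM. Of 7 testable endothelial transcription factor genes, of 17 listed, 4 were 4-fold higher in endothelial cells, among them Sox18 with 87 against 1 UMI, and 0 in mural cells, and against the 31 the counts were 3 and 0. Klf4 was at 780.5 CPM (692 to 878) and 654 CPM (555 to 765), and Epas1, which encodes HIF-2 alpha, at 761 CPM (673 to 857) and 569 CPM (477 to 674). Of the mural factor list 4 of 12 genes were testable, and 1, Prrx1, was 4-fold higher in mural cells, the 47 and the 31, at 358 CPM (286 to 443) in the latter. Ebf2 was seen in 17 of 31 and 1 of 40 cells.

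Of 6 testable clotting genes, of 9 listed, 3 were 4-fold higher in endothelial cells, Tfpi, F8 and Thbd (thrombomodulin), the last at 266 CPM (215 to 325) against 33.7 CPM (14.6 to 66.5) in the 31. The protein C receptor gene Procr was 4-fold higher in the 47 mural cells, where 80 of 116 UMIs were in the 7 Rgs5-alone cells, and its log2 ratio to the 31 was -1.59 (-2.52 to -0.71).

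Transcripts by which vessel cells act on blood stem cells came from both classes. The chemokine gene Cxcl12 was at 1768 CPM (1633 to 1911) in 18 of 40 endothelial cells, but the 2 cells with Adipoq held 368 of its 632 UMIs. In the 36 endothelial cells without mural or Adipoq transcripts it was at 798 CPM (701 to 905), but 1 cell held 145 of these 245 UMIs, and without it the level was 345 CPM (281 to 419). Of the 141 UMIs in the 31 cells 124 came from 1 cell, which also held 22 UMIs of Adipoq and 33 of Lepr and none of Acta2 or Myh11. Kitl, the ligand of the stem cell receptor Kit, was at 271 CPM (220.0 to 331) and 379.6 CPM (305 to 467), a log2 ratio of -0.48 (-0.91 to -0.05), and thinned shares of cells were 20.4% and 32.6%. Over the niche list 3 of 10 testable genes, of 13, were 4-fold higher in endothelial and 0 in the 47 mural cells, and against the 31 the counts were 2 and 1 of 9. Igfbp5 was more than 4-fold lower in endothelial cells than in the 31, at -2.31 (-2.57 to -2.06) on the log2 scale, whereas Igfbp4 and Igfbp7 were at -0.34 (-0.55 to -0.12) and -1.18 (-1.30 to -1.05).

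Endothelial cells were not uniform. Each cell was scored by its UMIs of 15 arterial and 12 sinusoidal genes, and 12 cells held more of the former and 28 more of the latter. The score is a range rather than a type, and in 6 cells the sums were within 5 UMIs of each other. Since genes of the score chose the groups, their levels are a description, and the other genes were measured in the same cells. Stab2, a scavenger receptor gene of sinusoids, was seen in 18 cells, all sinusoidal-scored. Another 10 sinusoidal-scored cells lacked it, among them 2 with the lymphatic genes given below. Il6st of the sinusoidal list was widely seen, in 18 of 18 cells with Stab2 and 17 of 22 without. The sinusoidal-scored group is thus wider than sinusoidal cells, and values for it are for all 28. Every one of the 18 held Mrc1, Flt4, Abcc9 and Fabp4, against 2, 12, 4 and 13 of the 22 without Stab2. The adhesion gene Vcam1 was in 16 of 18 and 1 of 22, and the selectin gene Selp in 13 and 3. The arterial genes Gja4, Stmn2 and Sema3g were in 9, 10 and 8 of 22 and in 0 of 18. That count leaves room for at most 16.7% of cells with a UMI. Other genes of the arterial list were seen in both groups, with Dll4 in 11 of 22 and 6 of 18 and Sox17 in 11 of 22 and 5 of 18. Of 1130 genes 34 were 4-fold higher in the cells with Stab2 (3.01%) and 39 in those without (3.45%), among the latter Sparcl1 and Col15a1. Median depths were close, at 6826 and 7027 UMIs.

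**Figure D3:**
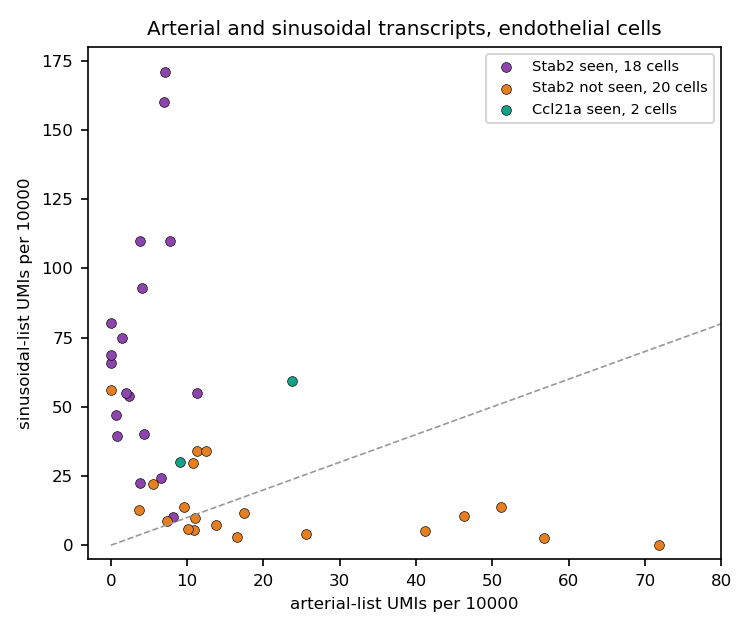
UMIs of 12 sinusoidal against 15 arterial genes per 10000 UMIs in each of 40 endothelial cells, with colours for Stab2 or Ccl21a UMIs and a dashed line of equal sums. The 18 Stab2 cells lie above the line, and the cells without Stab2 spread along both axes.

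Of 1130 genes with 50 UMIs in endothelial cells, 25 were 4-fold higher in the 12 arterial-scored cells (2.21%) and 50 in the 28 sinusoidal-scored cells (4.42%). Median depth differed, at 11706 and 6673 UMIs, and the shares of cells with a UMI given for these groups were not thinned. The mixed cell with 204 Rgs5 UMIs was among the arterial-scored cells. Outside the score lists, arterial-scored cells were led by the taurine transporter gene Slc6a6, at 992 CPM (822 to 1186) against 101 CPM (65.0 to 151), by Sparcl1 and by Ly6a, the stem cell antigen Sca-1. Podxl, a sialomucin of the vessel lumen, gave a log2 ratio of 2.74 (2.13 to 3.39). Sinusoidal-scored cells were led by Selenop, a selenium carrier, at 3197 CPM (2973 to 3433) against 231 CPM (154 to 334), and by F8, the clotting factor VIII gene, which was in 19 of 28 cells and 0 of 12, at least 11.8-fold higher. The transcription factor gene Maf was at 279 against 8.26 CPM. The channel gene Abcc9 had 117 of its 120 endothelial UMIs in sinusoidal-scored cells, a log2 ratio of arterial to sinusoidal of -4.32 (-6.62 to -2.74), and Kcnj8 had 41 of 44. In the 18 Stab2 cells Abcc9 was at 607 CPM (497 to 734), above the 160.3 CPM (113 to 220.0) of the Myh11/Notch3 cells.

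Genes of vessel signals, lipid uptake and matrix are given for the same groups, without a tally of each list. Of 44 Edn1 UMIs 39 were in arterial-scored cells, but 1 of these cells held 27, and the others held 12 against 5 in sinusoidal-scored cells. The apelin gene Apln was in 8 of 18 cells with Stab2 and 3 of 22 without, and its receptor gene Aplnr in 13 and 7. Pdgfb was seen in 12 of 12 arterial-scored and 11 of 28 sinusoidal-scored cells, a log2 ratio of 1.85 (1.00 to 2.74). Kitl gave 1.92 (1.29 to 2.57) and the growth factor binding gene Igfbp3 2.97 (1.94 to 4.13). The caveolin gene Cav1 was at 1107 against 165 CPM, and Cav2 followed it at 347 against 46.5. Fabp4 was in 8 of 12 and 23 of 28, at a log2 ratio of -0.73 (-0.89 to -0.56). Col4a1, of the basement membrane, was at 2777 CPM (2488 to 3090.3) in arterial-scored and 1387 CPM (1241 to 1546) in sinusoidal-scored cells. Ackr1, Sele and Selp, genes of venous endothelium that lead the arrest of leukocytes, had 40, 23 and 51 UMIs in sinusoidal-scored cells and 0 in the 12. They are 3 of 9 venous genes listed. Vwf, another of the list, was in 2 of 18 cells with Stab2 and 8 of 22 without, and Ephb4 in 13 and 12.

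In 2 of the sinusoidal-scored cells lymphatic genes were seen. They held all 127 endothelial UMIs of Ccl21a, the chemokine gene of lymphatic vessels, with 96 and 31 UMIs, all 15 of Lyve1 and all 6 of Reln. Mmrn1 had 34 of its 70 UMIs in them, both held Prox1, the factor that sets lymphatic identity, as did 3 of the other 38 endothelial cells, and both lacked Stab2, Mrc1 and Fabp4. Of their 45 sinusoidal-list UMIs 34 were from Lyve1, Flt4 and Stab1.

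Mural cells differed in their Rgs5 and contractile transcripts. Across the 31 Myh11/Notch3 cells Rgs5 and the sum of Acta2 and Tagln, as CPM, were inversely ordered (Spearman's rho -0.58), while Myh11 followed Acta2 and Tagln (rho 0.87). The rule left out cells low in both Rgs5 and the sum of Acta2 and Tagln, which by itself favours an inverse order, and Myh11 helped to choose the 31, so these values are a description. The points share a library, each value is a share of the same total, and rho with the depth of the cell was -0.34 for Rgs5 and 0.33 for Myh11. By the arms of the rule, 30 of the 47 cells held at least 3 Rgs5 UMIs and 17 passed by contractile genes only, and of 1553 genes 84 (5.41%) and 85 (5.47%) were 4-fold higher in the former and the latter. These 17 include the 8 cartilage-gene cells. Of the 31, 23 held at least 3 Rgs5 UMIs and 8 did not. The 23 had 0 to 435 Acta2 and Tagln UMIs (median 51) and the 8 had 32 to 798 (median 213). Of 654 genes with 50 UMIs in the 31, 22 were 4-fold higher in the Rgs5 cells (3.36%) and 1 in the contractile-only cells (0.153%). Col5a3, Ndufa4l2 and Steap4 had 90, 76 and 75 UMIs in the former and 0 in the latter, at least 12.2, 10.3 and 10.1-fold higher. Mgp (matrix Gla protein), an inhibitor of calcification, was at 4439 against 366 CPM, and Sparc at 3994 against 965. Contractile-only cells had more Flna, Myl6 and Dstn, genes of the actin cytoskeleton, at 2794, 8762 and 2677 CPM against 1120.0, 4528 and 1345. Fabp4 had 416 of its 423 UMIs in the Rgs5 cells. Haemoglobin and other red cell genes moved with a few mural cells. All 5 testable genes of a list of 7 were 4-fold higher in the 47 mural than in endothelial cells, but 94.1% of the mural UMIs of the list lay in 4 cells, 3 of them among the 31, that drew over 1% of their UMIs from blood genes. Without these 4 the list was at 1543 CPM in Myh11/Notch3 and 1427 CPM in endothelial cells.

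**Figure D4:**
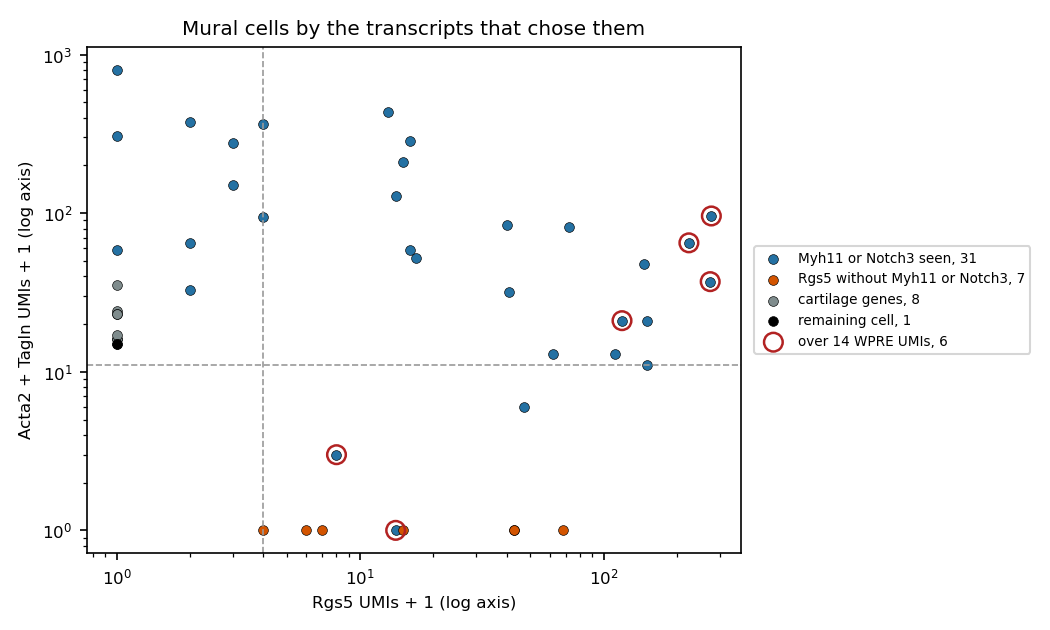
Acta2 and Tagln UMIs against Rgs5 UMIs, both plus 1 on log axes, in each of the 47 mural cells, with dashed lines at the thresholds of the rule and red rings for cells with over 14 WPRE UMIs. The 31 Myh11/Notch3 cells (blue) spread from high Rgs5 to high Acta2 and Tagln, the 7 orange cells have Rgs5 alone, and the 8 grey cells lie just above the contractile threshold at 0 Rgs5.

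The 7 cells with Rgs5 alone shared other transcripts. Against the 31, 84 of 984 genes were 4-fold higher (8.54%) and 166 lower (16.9%), and since the absence of Myh11 and Notch3 chose the 7, these counts describe them. Cd55, a complement regulator, was in 7 of 7 cells at 2226 CPM (1928 to 2557) against 2 UMIs in the 31, and Ackr3, a scavenging receptor of CXCL12, in 7 of 7 at 579 against 25.3 CPM. Named after their values were seen, Prg4 (lubricin), the joint lubricant, had 2, 602 and 1716 UMIs in the lowest, median and highest of the 7, and Clic5, Lbp, F13a1 and Has1 were seen in all 7. Their CPM were 3128 for Clic5, 2460.1 for Lbp and 1191 for F13a1. In chondrocytes, taken as Ptprc-negative cells with at least 10 Col2a1 and Acan UMIs, these were 0.539, 139 and 217 CPM. In fibroblast or stromal cells they were 11.4, 372 and 8.58 CPM. Prg4 was at 52552 CPM in the 7, 9535 in chondrocytes and 4185 in fibroblast or stromal cells. Clic5 and Lbp were also seen in 10 and 20 of the 40 endothelial cells. The 7 are named here by these genes and given no cell type. Among the 8 cartilage-gene cells all 9 listed chondrocyte genes were present, but Col2a1 and Acan of that list chose the 8 and limited the 31. Without both, the other 7 genes summed to 22921 CPM in the 8, 29.5 in the 31 and 25.2 in endothelial cells.

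Mmp14, the membrane protease that the study deleted from HC descendants, was seen in endothelial cells with 59 UMIs in 22 of 40 cells or 165 CPM (126 to 213), and 0, 1 and 11 UMIs in the lowest, median and highest cell. Myh11/Notch3 cells held 14 UMIs in 9 of 31, or 59.0 CPM (32.3 to 99.1), a log2 ratio of 1.48 (0.62 to 2.44), and all 14 were in the Rgs5 cells. Thinned shares of cells with a UMI were 18.7% and 9.35%, against 55% and 29.0% unthinned, and blood cells were at 9.51 CPM. Within endothelial cells 55 of 59 UMIs were in sinusoidal-scored cells, at 233 CPM (175 to 303) against 33.1 CPM (9.01 to 84.6), a log2 ratio of arterial to sinusoidal of -2.81 (-4.74 to -1.38). In cells with Stab2 it was at 275 CPM (203 to 364), in the others at 60.2 CPM (30.0 to 108). Of the endothelial UMIs 12 were in the 2 mixed cells with Adipoq, both sinusoidal-scored with Stab2, 1 of which held the 11. Without the 4 mixed cells Mmp14 was at 153 CPM (113 to 204) in endothelial cells, at 216 CPM (156 to 291) in sinusoidal-scored and 37.2 CPM (10.1 to 95.2) in arterial-scored cells, and at 252 CPM (176 to 348) with and 67.1 CPM (33.5 to 120.1) without Stab2. Every mouse carried 1 floxed allele, and whether the counted transcripts cover the deleted part was not tested. Mmp15, of the same membrane-bound family, had 22 UMIs in endothelial cells and 3 in mural cells. Over the protease list 0 of 8 testable genes, of 15, were 4-fold higher in endothelial and 2 in the 47 mural cells, Pth1r and Timp1, whose log2 ratio was -4.06 (-5.14 to -3.16) to the 47 and 0.41 (-1.28 to 2.31) to the 31. Against the 31 the counts were 0 and 2 of 6, namely Timp4, at -2.24 (-3.23 to -1.35), and Adamts4, at -2.20 (-3.03 to -1.43), and Pth1r was under 50 UMIs. Timp3, an inhibitor gene, was at 831 CPM (739 to 931) and 1042 CPM (916 to 1180.1). Pth1r, the parathyroid hormone receptor gene that the study names as a substrate of MMP14, had 2 UMIs in endothelial cells, or 5.59 CPM (0.678 to 20.2), below the 29.6 CPM of blood cells. In Myh11/Notch3 cells it was in 7 of 31 at 46.4 CPM (23.2 to 83.0), and 43 of 54 mural UMIs were in the cartilage-gene cells.

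At the study's threshold the reporter was called in mural and not in endothelial cells. WPRE is a viral element at the end of the tdTomato transcript. The study calls a cell HC-derived with more than 14 WPRE UMIs, a cut through a continuous count. It matched this cutoff to a measured share of tdTomato-positive HCs and places it at a saddle point of the counts. It applied the cutoff to osteogenic cells. At least 1 WPRE UMI was in 23 of 40 endothelial cells, or 57.5% (40.9% to 73%), and in 31.4% (30.3% to 32.6%) of blood cells, which should lack it, at a median depth of 6915 and 5584 UMIs. Summed, WPRE was at 171 CPM (131 to 219) in endothelial and 71.0 CPM (68.8 to 73.3) in blood cells, and 4 of 40 and 45 of 6529 cells held more than 4 UMIs. What these low counts stand for was not tested. A tdTomato UMI was in 2 endothelial cells, 1 of which held the highest WPRE count of the class. No endothelial cell passed 14, the highest count was 8, and 0 of 40 leaves room for at most 7.5%. Of the 47 mural cells 6 passed, or 12.8% (4.83% to 25.7%), all of them among the 23 Myh11/Notch3 cells with Rgs5 (26.1%, 10.2% to 48.4%). They held 16, 19, 26, 26, 52 and 70 WPRE UMIs at 5432 to 9846 UMIs in all, every one held a tdTomato UMI, and the next mural cell had 11. No contractile-only Myh11/Notch3 cell passed (0 of 8, at most 37.5%), nor did the 7 Rgs5-alone or the 8 cartilage-gene cells. Among blood cells 14 of 6529 passed (0.214%), and among chondrocytes 44 of 312 (14.1%). Among fibroblast or stromal cells, taken by Col1a1, Col3a1 and Dcn, 14 of 136 passed (10.3%). This last class was mixed. Summed, it held an osteoblast list at 32052 CPM, and 22 of its cells held GFP. Its median cell had 103 CPM over that list and 18525 CPM over a list of fibroblast and tendon genes. The difference between endothelial and mural cells was not tested. GFP and Cre had 0 UMIs in all 87 cells.

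**Figure D5:**
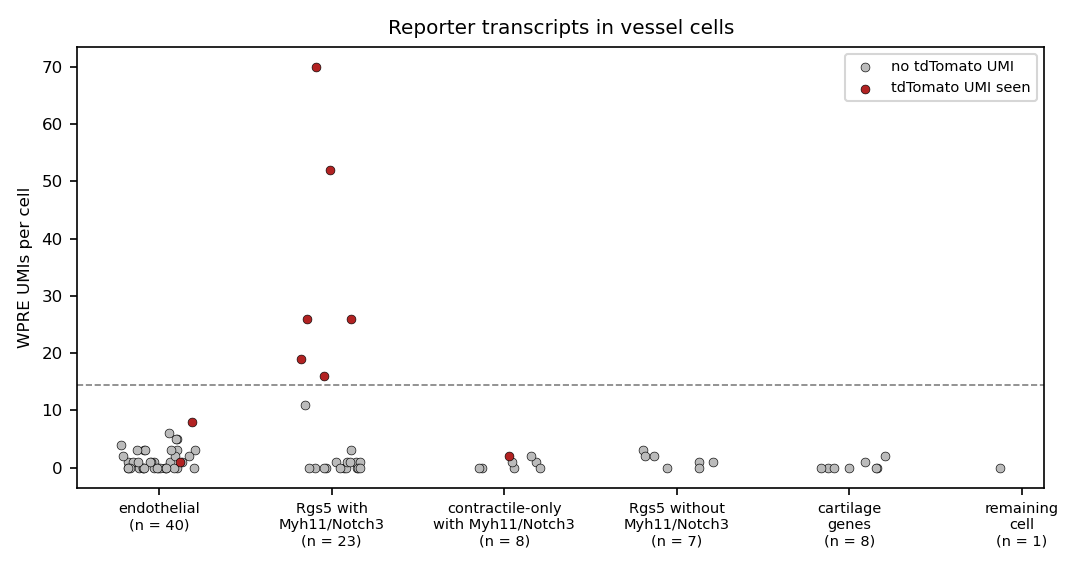
WPRE UMIs in each of the 87 cells by group, in red where a tdTomato UMI was seen, with a dashed line at the threshold of more than 14. The 6 cells above the line are all in the column of Rgs5 cells with Myh11 or Notch3, and endothelial cells reach at most 8.

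The 6 cells were not alike. In 4 of them Rgs5 was at 118 to 276 UMIs with 6 to 19 of Myh11 and 2 to 10 of Notch3. The cell with 16 WPRE UMIs held 13 of Rgs5, 1 of Notch3 and no Acta2, Tagln or Myh11, beside the Cxcl12, Lepr and Adipoq UMIs given above, and 45 of the osteoblast gene Ibsp. The cell with 52 had 7 of Rgs5, 1 of Myh11 and 6 of Pdgfrb. The cell with 19 held 607 UMIs of Hbb-bs. Summed, the 6 had Rgs5 at 21001 CPM against 4701 in the 25 other Myh11/Notch3 cells, and Acta2 at 3069 against 11116, with Rgs5 at 7 to 276 and 0 to 150 UMIs per cell, so that the groups overlap. Pdgfrb was at 623 against 330.3 CPM, a log2 ratio of 0.92 (0.21 to 1.59), and Notch3 at 600.0 against 557, 0.11 (-0.57 to 0.73).

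Markers of other cells were checked last. Lists for neutrophils, monocytes and macrophages, and B cells summed to 794, 53.2 and 518 CPM in endothelial cells and 784, 50.6 and 797 CPM in the 31, and Csf1r and C1qa, which define macrophages, were at 0 in all 87 cells. In endothelial cells, the 31 and fibroblast or stromal cells, a reticular stroma list with Cxcl12 was at 2708, 1826 and 506 CPM. An osteoblast list was at 173, 245 and 32052 CPM, and a list of fibroblast and tendon genes at 67.1, 333 and 19968 CPM. Single cells weighed on these sums. Over the reticular list the median endothelial cell had 308 CPM and the highest 19988, and in the 31 these were 736 and 37107. Over the osteoblast list the median was 0 in both, and the highest of the 31 had 6668 CPM. The part of these lists in the results was not tested. Schwann cell and skeletal muscle lists summed to at most 34 CPM in either. A cell cycle list summed to 285 CPM in endothelial cells, 560.4 in the 47, 160.3 in the 31 and 1343 in the 8 cartilage-gene cells. Of 4 testable genes, of 10, Birc5 and Ube2c were 4-fold higher in the 47 mural cells, at -2.63 (-4.13 to -1.41) and -3.06 (-4.55 to -1.87) on the log2 scale, and 0 of 1 in the 31. Mki67 had 56 of 59 mural UMIs in 3 cartilage-gene cells, and was seen in 5 endothelial cells, 1 of which held 17 of 21 UMIs, and in 2 of the 31. Immediate-early and heat-shock genes, which tissue digestion can induce, were at 11122 CPM together in endothelial and 12876 CPM in Myh11/Notch3 cells, and of 14 genes 1, Hspa1b, was 4-fold higher in endothelial than in the 47 mural cells and 0 in mural cells. Against the 31 the counts were 0 and 0. Cells were released from bone fragments by enzymes after early, blood-rich fractions were discarded, so that the counts of each class do not give its share in the tissue.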

How the data were processed

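Single-cell transcripts of dissociated tibiae were counted by the authors with Cell Ranger 3.1.0 on mm10 and analysed by them with Seurat 3, per the submitters' processing notes. The deposited tables hold UMI counts per gene and barcode, with no normalization, and a second table holds counts of the exogenous transcripts WPRE, tdTomato, GFP and Cre. The 8 labelled samples form 1 group, cells of 3 mice were pooled, and no barcode carries a mark of sample or mouse, so the pool is 1 sample and no test was made. Depth was 500 to 103543 UMIs per barcode (median 5417).

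Cells were taken by the stated rule from barcodes with at least 800 genes and at most 20% mitochondrial UMIs. Counts were summed per class into CPM with exact Poisson intervals, log2 ratios with exact conditional intervals, and shares with Clopper-Pearson intervals, all at 95% and for counting error only (SciPy 1.17.1, pandas 2.3.3, NumPy 2.4.6). A class at 0 UMIs entered its ratio with 3 counts, and 0 of n cells was given the limit of 3 counts in n, which bounds cells with a UMI and not cells expressing the gene. A gene was compared with at least 50 UMIs in both classes together and counted as higher at 4-fold. For shares, cells were also thinned to 1500 UMIs over 100 draws. Named genes were those of the lists and, in each direction, the first 15 (10 within a class) by the interval bound nearest 0, among genes with at least 100 UMIs (50 within a class), seen in at least 25% of the higher cells and with no more than 25% of the UMIs in 1 cell. Genes named outside this rule were chosen after their values were seen. Not every gene within the rule is named. Members and lists were chosen with earlier results of these data known. The groups of 31, 8, 7 and 36 cells and the 4 mixed cells were defined after seeing the data. Scrublet (scanpy 1.11.5, 6% expected) took 302 of 9261 barcodes (3.26%) for doublets. These stayed in the data and include 0 of the 87 cells. Of the calls 275 were blood cells, 0 chondrocytes and 2 fibroblast or stromal cells. Whether the method can find mixtures among so few vessel cells was not tested. Gene positions are from GENCODE M21 and promoters from RefSeq GRCm38.p6. The ratios were checked on simulated Poisson counts without variation between cells, which checks the calculation only. Alternatives changed the cell limits, thresholds, scaling, weighting of cells, count minimum and depth.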

Additional observations from a re-analysis of the deposited data

How the results depend on the processing

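No paired analysis was possible because all samples are 1 pool, and no replicate could be left out. The numbers of endothelial and mural cells stayed at 40 and 47 within 1.5-fold under other gene, mitochondrial, Ptprc and marker limits. With all genes of at least 1 UMI, 1991 genes were 4-fold higher in endothelial and 716 in mural cells. At a minimum of 200 UMIs the counts were 37 and 72. Against the 31 Myh11/Notch3 cells, 124 genes were higher in mural cells, and 134 when the 4 mixed endothelial cells were also left out, where fewer genes entered (1986 and 1758). Of 162 named genes, 0 to 4 of those at 4-fold changed sign under each setting, as did 0 to 9 of those under 4-fold, with 9 against the 31. Adipoq turned from a log2 ratio of 2.02 to -2.18 without the mixed cells, to -3.31 with both restrictions and to -0.56 without its highest cell. Cd55 turned from -2.14 to 3.41 against the 31 and 3.15 with both restrictions, Timp1 from -4.06 to 0.41 and 0.11, Birc5 from -2.63 to 0.41 and 0.63, and Hbb-bs from -3.70 to 0.34 without cells over 1% blood-list UMIs. For 22 genes called against the 47, among them Abcc9, Cxcl12, Fabp4, Notch1 and Nrp1, the ratio to the 31 was under 4-fold. Leaving out the cell with most UMIs of a gene took 9 calls under 4-fold, among them Abcc9 (1.98), Cxcl12 (1.82) and Procr (-1.96). Thinning took 9, among them Fabp4 (1.89) and B2m (1.98). Genes not called at first also rose to 4-fold, 15 against the 31, 7 without the highest cell and 14 with thinning. Scaling by the median of ratios moved the median of all genes by less than 0.1. A share of cells between 40 and 47 cells is bounded only widely, and counts under 3 UMIs per class give no order.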
